A study of Mus musculus with 2197 samples.

Results

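The genes described here are 45 mouse genes that cells use to copy their DNA and to divide, 22 for S phase and 23 for mitosis, out of 40824 genes in a table of Smart-seq2 read counts from the embryonic pancreas. They were taken from a list of names of cell-cycle genes, not by their measured levels, and every one was found in the table and in 2 droplet libraries. Smart-seq2 reads single sorted cells one by one in plates, whereas the droplet method (10x Genomics, 3′ version 2) captured cells of whole digested pancreas at E14.5 (E, embryonic day).

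Before S phase the MCM complex (Mcm2, Mcm3, Mcm4, Mcm5, Mcm6 and Mcm7), loaded by Cdc6 and Cdt1, is placed on DNA as the replicative helicase, and with Cdc45 and Gins2 it opens the double helix. E2F factors and cyclin E drive the genes of this step, and in mitosis cyclin B with its kinase Cdk1, the Aurora kinases, spindle motors and checkpoint kinases part the copied chromosomes. In the embryonic pancreas, multipotent, acinar and trunk progenitors are known to divide, whereas cells that switch on Neurog3 commit to the endocrine fate and leave the cell cycle.

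Cells were sorted on reporters of mouse embryos. Pdx1, the factor of the early pancreatic bud, marked Pdx1-GFP+ cells of a transgene at E9.5, E10.5 and E11.5, Pdx1-GFPhigh cells at E10.5 and, through Pdx1-Cre with ROSA-RFP, the descendants of Pdx1 cells on each of 6 days from E10.5 to E15.5. A GFP knock-in at Neurog3 gave Ngn3-GFP+ cells at E10.5, E12.5, E16.5 and E17.5, and on each day from E13.5 to E15.5 a strong (Ngn3-GFPhigh) and a weak signal (Ngn3-GFPlow) were sorted apart. Ngn3-Cre and Ptf1a-CreER, each with ROSA-RFP, were sorted at E11.5, and Sox9-CreER with ROSA-RFP, which marks the ductal lineage, on E16.5 and E17.5. Hormone cells were Ins1-RFP+ at E15.5 and Gcg-GFP+ at E15.5 and E17.5, and a further Ins1-RFP+ sort came from dorsal pancreata taken at E13.0 and kept for 48 h in culture with or without 10 µM U0126, an inhibitor of MEK1 and MEK2. The labels name no mutant group. A Cre driver marks all later descendants of a cell, and GFP can outlast the transcript that made it. Neurog3 itself stood at 0.601 to 64.8 CPM in the sets of Ngn3-GFP+ cells at E10.5 and at 0.616 to 8.35 CPM at E12.5, against 409 to 1112 CPM in the Ngn3-GFPhigh sets.

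Smart-seq2 cells numbered 2195 in 29 groups, divided into 82 sets by a number in the sample titles. Sets had 6 to 71 cells and 2838610 to 79253014 gene counts, and a cell had a median of 809389 counts. Levels are given in CPM, the usual unit that scales a gene's counts to the total of its library, here the gene counts of a set without spike-ins. Tests were made over sets, since cells are not replicates, and nothing in the labels says that sets are separate animals, so p-values measure only how sets spread, possibly for technical reasons. Cells with Csf1r, the macrophage growth factor receptor, at 100 CPM or more numbered 159 and were unequally spread. Ngn3-GFPlow sets held 52 at E13.5, 32 at E14.5 and 12 at E15.5, Ngn3-GFP+ sets held 13 at E10.5 and 42 at E12.5, and Ngn3-GFPhigh sets held 0. Most counts of calls, list sums and shares of cycling cells that rest on those sets are given with and without these cells, and other values use all cells. The droplet libraries shared 31 barcode sequences, 0.912% and 0.470% of their analysed barcodes.

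The stretch of DNA around the start of a gene is shown for 2 members of each list, since matches to the letters of cell cycle regulators were counted in such stretches. The RefSeq table on GRCm38.p6 held 250 bases before to 50 after the start for 39 of the 45 members. Capitals mark the letters TTTGGCGC, TTTCCCGC, TTTCGCGC and TTTGCCGC of an E2F site, the cell cycle homology region (CHR) letters TTTGAA and TTCGAA, and CCAAT. The S phase gene Mcm5 (chr8:75109259-75109558, plus strand) held 2 E2F, 0 CHR and 3 CCAAT matches, and Mcm6 (chr1:128359656-128359955, minus strand) 3, 0 and 2. The mitosis gene Top2a (chr11:99024140-99024439, minus strand) held 0, 4 and 6, and Cdk1 (chr10:69352863-69353162, minus strand) 1, 2 and 3. All letters were searched on both strands, matches may overlap, and each sequence runs 5′ to 3′ along its gene.
Mcm5: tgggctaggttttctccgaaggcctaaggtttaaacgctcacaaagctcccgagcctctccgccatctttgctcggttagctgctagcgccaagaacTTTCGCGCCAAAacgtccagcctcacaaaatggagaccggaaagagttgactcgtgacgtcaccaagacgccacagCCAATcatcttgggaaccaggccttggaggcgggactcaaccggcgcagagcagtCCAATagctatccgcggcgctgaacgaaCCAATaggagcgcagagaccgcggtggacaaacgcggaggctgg
Mcm6: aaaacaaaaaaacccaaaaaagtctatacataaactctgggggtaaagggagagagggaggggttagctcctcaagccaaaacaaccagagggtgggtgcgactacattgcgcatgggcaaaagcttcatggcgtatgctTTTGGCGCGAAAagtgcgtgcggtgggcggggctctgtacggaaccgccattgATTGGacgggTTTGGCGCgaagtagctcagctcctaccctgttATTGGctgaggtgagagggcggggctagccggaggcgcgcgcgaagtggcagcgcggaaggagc
Top2a: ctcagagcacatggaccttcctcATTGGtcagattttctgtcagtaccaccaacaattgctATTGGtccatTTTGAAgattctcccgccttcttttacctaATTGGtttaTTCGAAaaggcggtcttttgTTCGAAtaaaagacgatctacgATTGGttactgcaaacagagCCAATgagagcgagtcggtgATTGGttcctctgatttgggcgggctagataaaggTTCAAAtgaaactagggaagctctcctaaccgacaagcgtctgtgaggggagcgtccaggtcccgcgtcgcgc
Cdk1: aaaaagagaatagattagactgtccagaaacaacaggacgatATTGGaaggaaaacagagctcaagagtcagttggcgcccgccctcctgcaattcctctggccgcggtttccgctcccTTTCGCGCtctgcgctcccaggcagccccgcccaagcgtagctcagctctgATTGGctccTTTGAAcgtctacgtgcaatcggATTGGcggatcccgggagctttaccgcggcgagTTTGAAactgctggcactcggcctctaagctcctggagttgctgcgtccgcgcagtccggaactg
E2F letters were present in 6 of 19 S phase promoters (31.6%), 2 of 20 mitosis promoters (10.0%) and 2.32% of all 27025 promoters. CHR letters were in 16 of 20 mitosis promoters (80.0%), 4 of 19 S phase promoters (21.1%) and 19.4% of all promoters. CHR and CCAAT letters stood together in 16 of 20 mitosis promoters (80.0%), in 3 of 19 S phase promoters (15.8%) and in 7.70% of all promoters. A match of letters is a description of the sequence and no evidence of binding.

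Levels of the members differed widely when scaled to gene length. In Pdx1-Cre cells, Slbp, which binds histone mRNA, was the highest at 114.5 CPM per kilobase, followed by the helicase subunit Mcm7 at 87.9, the ribonucleotide reductase subunit Rrm2 at 85.9 and the anaphase activator Cdc20 at 85. The lowest were E2f1, a transcription factor of the S phase genes, at 3.12 and the flap endonuclease Fen1 at 1.26 CPM per kilobase. Fen1 shares 84.2% of its exonic bases with Gm10143 on the opposite strand, Gins2 67.3% with Gse1 and Ube2c 22.8% with Tnnc2. The library kit in the labels is not stated to keep strand, so counts of these 3 genes are uncertain. In the droplet libraries, whose counts are unique molecules, Fen1 was seen in 11.4% and 20.9% of acinar-like barcodes at 3000 molecules each.

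Across the 82 sets, each mitosis gene followed the summed CPM of the other mitosis genes, with Pearson correlations on the log2(CPM + 1) scale from 0.879 for Aurka to 0.979 for Cdk1. S phase members ranged from 0.813 (Fen1) to 0.956 (Mcm7) with 1 exception, E2f1, at -0.18. These are descriptions over sets that share groups and carry different depths. By the same measure, the genes outside the lists that were most like the S phase sum were Hells (0.961), Lig1 (0.953), Cdca7 (0.949), Exo1 (0.949) and Hnrnpf (0.947), and those most like the mitosis sum were Cdca8 (0.976), Ckap2l (0.965), Shcbp1 (0.962), Melk (0.958) and Kif15 (0.957). E2f1, singled out after its values were seen, had 21.6 to 35.95 CPM in Ngn3-GFPhigh sets at E13.5 and 13.8 to 25.4 CPM in Ngn3-GFPlow sets of that day. Where most members were high it was not, since 1.27% of Ptf1a-CreER cells and 29.9% of Ngn3-GFPhigh cells at E13.5 had E2f1 at 50 CPM or more.

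**Figure D1:**
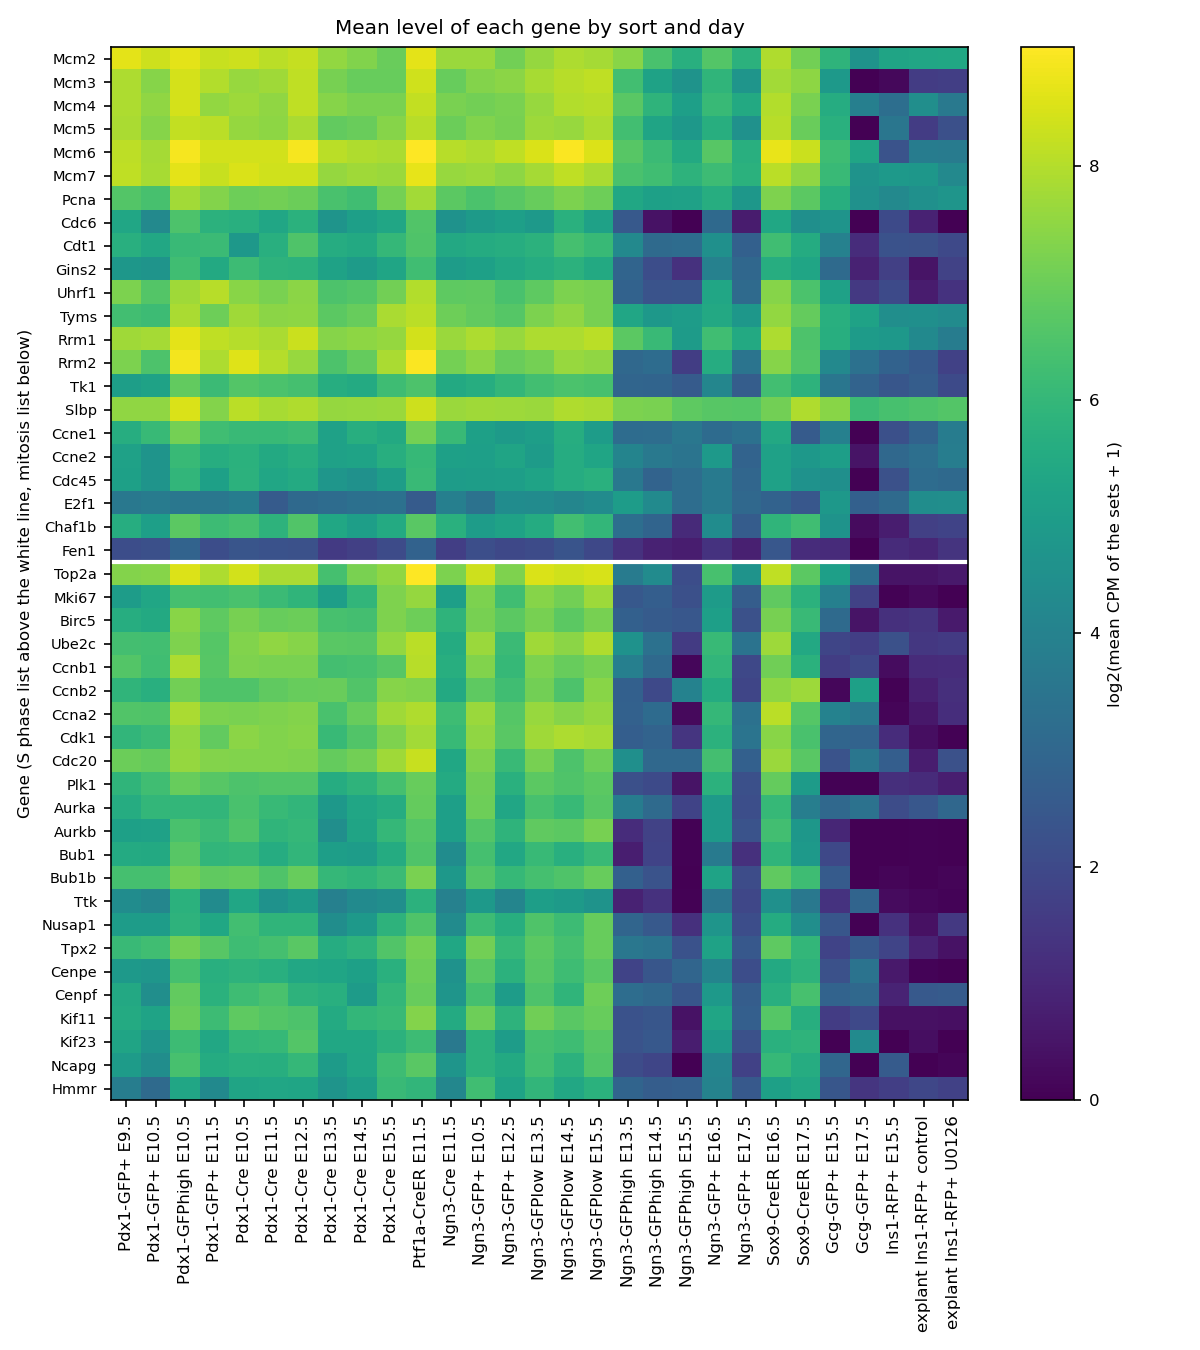
Heat map of the 45 members (vertical axis, S phase above mitosis) over the groups of sets (horizontal axis), the colour giving log2 of the mean CPM of a group's sets plus 1. Low values are dark and high values bright. Slbp is brighter than E2f1 in every group, while Mki67 and Cdk1 are bright in progenitor groups and dark, near 0, in Ins1-RFP+ cells and explants.

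A cell was counted as cycling when at least 8 of the 22 S phase or at least 8 of the 23 mitosis members stood at 50 CPM or more. Of 2195 cells, 1040 (47.4%) met this, 510 by the S phase list alone, 34 by the mitosis list alone and 496 by both. Cells near the cut were 145 with 7 or 8 S phase members and 52 with 7 or 8 mitosis members. Cycling cells had fewer counts than the rest (median 696685 against 885773) and a like number of detected genes (8067.5 against 7910). The count is a range of a score made from the members themselves, so it restates their levels cell by cell.

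**Figure D2:**
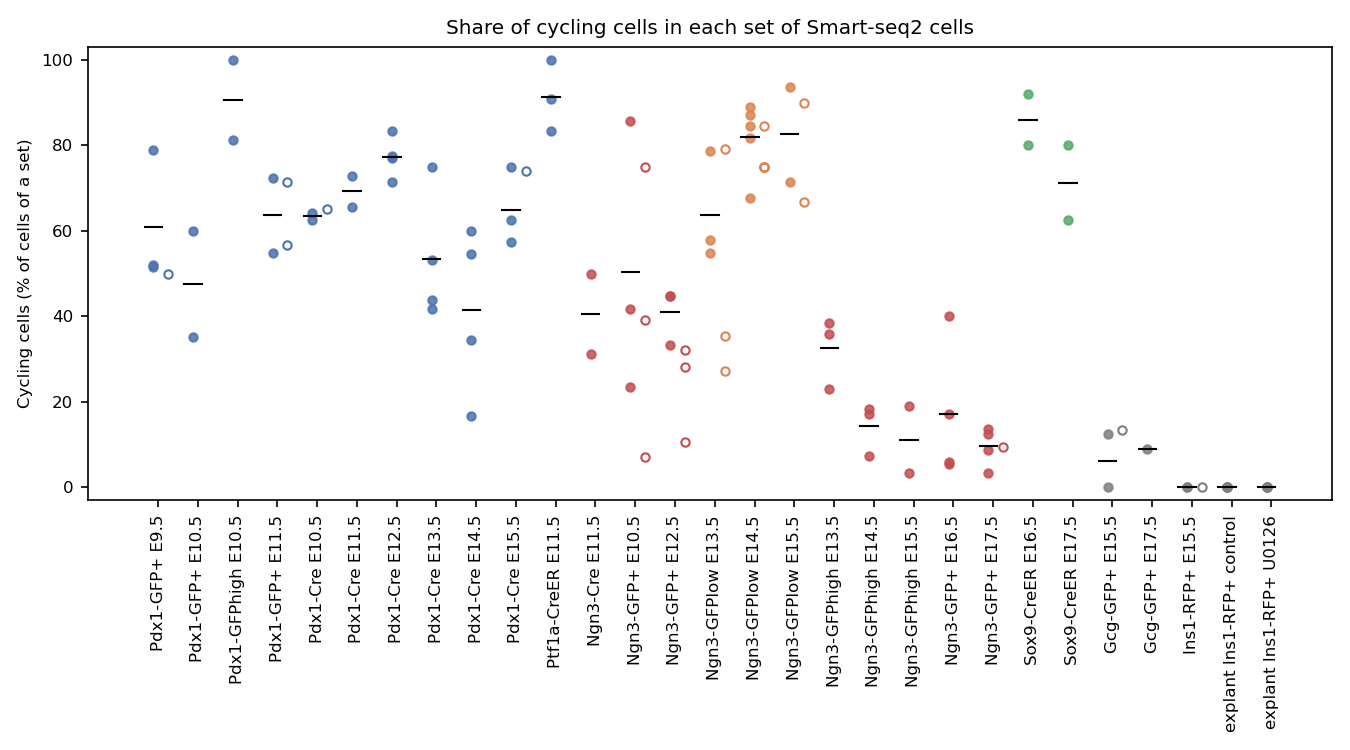
Share of cycling cells in percent (one axis) for each set of each group (other axis), where filled points use all cells, open points leave out cells with Csf1r, and the black line is the mean of a group's sets. Every explant and Ins1-RFP+ set lies at 0. With all cells, Ngn3-GFPhigh sets lie between 3.33% and 38.5%, and Ngn3-GFPlow sets between 54.9% and 93.8%. The open Ngn3-GFPlow points of E13.5 reach down to 27.3% and overlap the Ngn3-GFPhigh sets.

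Ngn3-GFPhigh and Ngn3-GFPlow cells were compared on 3 days, a comparison of cells with strong Neurog3 reporter signal and cells with weak signal. At E13.5, 21 of 45 members were lower in Ngn3-GFPhigh cells and 0 higher by edgeR's quasi-likelihood test (Benjamini-Hochberg adjusted p under 0.05), 10 of the S phase and 11 of the mitosis list, while 4.61% of all genes tested were called lower. The median log2 fold change was -1.72 over the S phase list, -4.56 over the mitosis list and -0.14 over all genes. In such sums over a set, fewer cells of a type and less RNA per cell cannot be told apart. Rrm2, which makes the DNA building blocks, stood at 7.63, 3.96 and 10.52 CPM in the 3 Ngn3-GFPhigh sets and at 140.0, 117 and 161 CPM in the 3 Ngn3-GFPlow sets, groups that lay far apart. Its log2 fold change was -4.36 ± 0.69 (SE, adjusted p = 0.00447, edgeR). Thymidine kinase Tk1 stood at 6.66 ± 0.874 against 77.9 ± 19.1 CPM (SD, n = 3 sets each), its log2 fold change being -3.65 ± 0.38 (edgeR adjusted p = 0.000356). The sliding clamp Pcna was lower by less, at 26.8, 45.3 and 50.1 against 112, 132 and 118 CPM, and the DNA topoisomerase Top2a by more, at 24.4, 3.55 and 9.86 against 578, 241.5 and 269 CPM. Both sorts kept apart in every set. Adjusted p was 0.00397 for Pcna (log2 fold change -1.70 ± 0.26) and 0.0212 for Top2a (-4.89 ± 1.15, edgeR). Mcm5 (-1.56), Gins2 (-2.97), the mitotic kinase Cdk1 (-5.38), Aurora kinase B Aurkb (-6.45) and the checkpoint kinase Bub1 (-6.46) fell too. Proliferation marker Mki67 (-5.17 ± 1.82, adjusted p = 0.11), cyclin B1 Ccnb1 (-3.48, adjusted p = 0.215) and cyclin E1 Ccne1 (-2.06, adjusted p = 0.0751) did not pass edgeR's test. Mki67 spread over 0.561 to 12.8 CPM in Ngn3-GFPhigh sets and 107 to 238 CPM in Ngn3-GFPlow sets.

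Most of the E13.5 calls were lost without the cells with Csf1r. All 8 leukocyte markers had counts in both sorts, and their summed level was 6.05 to 16.3 CPM in Ngn3-GFPhigh sets and 1132 to 9544 CPM in Ngn3-GFPlow sets, or 17.7 to 120.3 CPM there without the Csf1r cells. Without these cells 2 of the 21 calls remained, Rrm2 (-3.94 ± 0.78, adjusted p = 0.0265) and Tk1 (-2.79 ± 0.51, adjusted p = 0.0186, edgeR), and 43 of 45 members still had a log2 fold change below 0. The S phase median was then -0.95 and the mitosis median -4.12. Pcna fell short at -0.84 on the log2 scale (edgeR adjusted p = 0.291), and its Ngn3-GFPlow sets then stood at 118, 52.4 and 52.3 CPM. Of the Csf1r cells at E13.5, 39 of 52 were cycling (75.0%), and of the other Ngn3-GFPlow cells 33 of 66 (50%). Alpha cell markers summed to 380 to 61360 CPM (median 38294) in these Ngn3-GFPlow sets, and to 425 to 104263 CPM (median 88599) without Csf1r cells. They summed to 4296 to 16686 CPM in the Ngn3-GFPhigh sets. So 1 Ngn3-GFPlow set held little alpha cell RNA and the others held more than any Ngn3-GFPhigh set. The part of alpha cells in the result was not tested. Leaving out 1 set gave 7 (Ngn3-GFPhigh set 2), 9 (Ngn3-GFPhigh set 3), 13, 9 and 12 (Ngn3-GFPlow sets 1, 2 and 3) calls, and of the genes named here Rrm2, Tk1 and Pcna passed in each of the 6 fits. Cdk1 and Gins2 were lost in all 6, Bub1 in 5, Aurkb in 4, Top2a in 2 (Ngn3-GFPhigh set 2 or 3 left out) and Mcm5 in 1 (Ngn3-GFPhigh set 1).

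At E14.5, 36 of 45 members were lower in Ngn3-GFPhigh cells (21 S phase, 15 mitosis) against 9.01% of all genes, by the same edgeR test. Every S phase member but E2f1 passed. The licensing factor Cdc6 stood at 0, 0.374 and 0.731 CPM in the Ngn3-GFPhigh sets and at 53.9, 39.5, 32.9, 56.7 and 77.3 CPM in the 5 Ngn3-GFPlow sets, and its log2 fold change was -7.33 ± 1.02 (edgeR adjusted p = 0.000663). Mcm5 stood at 37.4, 44.2 and 31.2 against 220.9, 225.5, 160.0, 177 and 208 CPM. Neither gene overlapped between the sorts. Mcm5 had a log2 fold change of -2.57 ± 0.32 (adjusted p = 0.000311) and Pcna of -2.31 ± 0.25 (adjusted p = 9.99e-05, edgeR), from 34 ± 0.615 (n = 3) against 148.5 ± 19.6 CPM (n = 5). Rrm2 (-4.80), the maintenance methylation factor Uhrf1 (-5.44), Ccne1 (-2.67), Top2a (-4.29), the spindle motor Kif11 (-4.80), Aurkb (-5.66) and Cdk1 (-5.50) fell. Histone mRNA binder Slbp fell by 0.93 on the log2 scale, from 245 ± 45.3 (n = 5) to 148 ± 19.8 CPM (n = 3, adjusted p = 0.0249, edgeR). Its change was small beside that of Rrm2.

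The Ngn3-GFPhigh sets of this age differed in mitosis genes. Ngn3-GFPhigh set 1 had 18.0 CPM of Cdk1, 16.4 of Mki67 and 22.1 of Ccnb1, while sets 2 and 3 had at most 0.882, 0.187 and 0.280 CPM. The Ngn3-GFPlow sets all lay above set 1, at 106 to 458 CPM of Cdk1, 59.5 to 245 of Mki67 and 27.9 to 195 of Ccnb1. Mki67 (-4.80 ± 1.73, adjusted p = 0.0747) and Ccnb1 (-4.25 ± 1.58, adjusted p = 0.0838, edgeR) did not pass. Without Csf1r cells 28 of the 36 calls remained, with medians of -2.67 (S phase) and -4.31 (mitosis) and 44 of 45 members below 0, and Aurkb no longer passed (adjusted p = 0.0701, edgeR). Without Ngn3-GFPhigh set 2 or set 3 the count was 23 or 19, Top2a, Ccne1 and Aurkb lost their calls in both, and Cdk1 and Uhrf1 without set 3. Trunk and duct markers, such as Sox9 and Spp1, summed to 4968 to 17834 CPM in the Ngn3-GFPlow sets and 706 to 1119 CPM in the Ngn3-GFPhigh sets, and their part in the result was not tested.

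At E15.5, 33 of 45 members were lower in Ngn3-GFPhigh cells (17 S phase, 16 mitosis) against 5.58% of all genes. Cdc6 had no count in either Ngn3-GFPhigh set and stood at 13.1 and 56.8 CPM in the Ngn3-GFPlow sets, at least 571-fold lower when 3 counts over the group are taken as the floor (adjusted p = 0.00161, edgeR). The condensin gene Ncapg was likewise at 0 against 38 and 151 CPM, at least 1550-fold lower (adjusted p = 0.00653). Kinase Bub1b stood at 0 and 0.0345 against 68.4 and 172 CPM. Rrm2 (-6.63 ± 0.95, adjusted p = 0.00147), Mcm5 (-3.28 ± 0.43, adjusted p = 0.000821), Pcna (-2.01 ± 0.32, adjusted p = 0.00258), the chromatin assembly gene Chaf1b (-5.85), Top2a (-6.91), Ccnb1 (-10.34), Cdk1 (-7.34) and Aurkb (-11.73) fell by the same edgeR test. Mki67 (-6.06 ± 2.33, adjusted p = 0.119) and Ccne1 (-1.65, adjusted p = 0.209) did not pass. Without Csf1r cells 17 of the 33 calls remained, all 45 members lay below 0, and Pcna, Top2a, Ccnb1, Cdk1 and Aurkb missed the threshold. Leukocyte markers summed to 2440 and 4509 CPM in the Ngn3-GFPlow sets, to 250.2 and 441 CPM there without the Csf1r cells, and to 28.7 and 55.7 CPM in the Ngn3-GFPhigh sets. Trunk and duct markers stood at 6568 and 8253 CPM in the Ngn3-GFPlow and 543 and 767 CPM in the Ngn3-GFPhigh sets, and beta cell markers at 236 and 282 against 19146 and 26909 CPM. The part of these cell types in the result was not tested. Leaving out Ngn3-GFPhigh set 1, Ngn3-GFPhigh set 2 or Ngn3-GFPlow set 2 gave 19, 14 or 17 calls. Pcna was lost without Ngn3-GFPhigh set 2, Ncapg without either Ngn3-GFPhigh set, Top2a without Ngn3-GFPhigh set 2 or Ngn3-GFPlow set 2, Aurkb in 3 of 4 fits, and Cdk1 and Ccnb1 in each of the 4.

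The step between the sorts was not shown to change with age. The difference of the log2 fold changes of E15.5 and E13.5 passed edgeR's test for 0 of 45 members and 0.121% of all genes. By DESeq2 it passed for 6 members. It had an unadjusted edgeR p under 0.05 for 15 members and for 2172 of 18989 genes tested. Its median was -1.37 over the S phase list and -2.71 over the mitosis list against 0.06 over all genes. Without Csf1r cells 0 of 45 members passed, with 0.146% of all genes called higher and 0.0647% lower. The medians were then -1.49 (S phase) and -2.37 (mitosis). With all cells, Rrm2 differed by -2.27 ± 0.98 (adjusted p = 0.4) and Mcm5 by -1.73 ± 0.51 (adjusted p = 0.245, edgeR). Leaving out 1 set gave 1 (without Ngn3-GFPhigh E13.5 set 3), 2 (without Ngn3-GFPlow E13.5 set 1) or 4 calls (without Ngn3-GFPhigh E15.5 set 1).

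The lists parted within Ngn3-GFPhigh cells. Their S phase sum was 1077 ± 111 CPM at E13.5 (n = 3), 720 ± 92.6 at E14.5 (n = 3) and 501 ± 208 at E15.5 (n = 2), and their mitosis sum was 170 ± 170, 135 ± 169 and 63.4 ± 67.5 CPM. Ngn3-GFPlow cells had 2748 ± 318, 3419 ± 512 and 3156 ± 1104 CPM of S phase and 2948 ± 1227, 2445 ± 1166 and 3218 ± 1974 CPM of mitosis genes. Without Csf1r cells the Ngn3-GFPlow sums were 1808 ± 1258, 3395 ± 483 and 2430 ± 877 CPM for S phase and 2322 ± 1756, 2582 ± 1174 and 2412 ± 2520 CPM for mitosis. At E13.5 the S phase sums of the Ngn3-GFPlow sets were then 3260, 1136 and 1029 CPM, of which the last 2 lay within the Ngn3-GFPhigh range of 964 to 1186 CPM, while their mitosis sums of 809 to 4248 CPM lay above all 3 Ngn3-GFPhigh sets. The mean ratio of mitosis to S phase sum was 0.169, 0.179 and 0.108 in Ngn3-GFPhigh cells on the 3 days. In Ngn3-GFPlow cells it was 1.05, 0.708 and 0.970, or 1.26, 0.747 and 0.861 without Csf1r cells. A low ratio was not particular to Ngn3-GFPhigh cells. It was 0.112 in Ins1-RFP+ and 0.126 in Gcg-GFP+ cells of E15.5, and 0.0906 and 0.0725 in explants with and without U0126. One set carried the Ngn3-GFPhigh mean of each day, with ratios by set of 0.379, 0.062 and 0.065 on E13.5, 0.426, 0.0438 and 0.0677 on E14.5, and 0.171 and 0.0442 on E15.5. By cell, 23 of 77 Ngn3-GFPhigh cells at E13.5 were cycling, 22 of them by the S phase list alone and 0 by both lists. Of 108 at E14.5, 15 were cycling and 14 of these by the S phase list alone. Slbp was at 50 CPM or more in 81.8%, 82.4% and 66.7% of Ngn3-GFPhigh cells on the 3 days and in 86.4%, 90.4% and 86.5% of Ngn3-GFPlow cells. Mcm2 was in 80.5%, 49.1% and 27.5% of Ngn3-GFPhigh cells, Rrm1 in 53.2%, 41.7% and 17.6%, Mcm7 in 53.2%, 42.6% and 33.3%, and Rrm2 in 5.19%, 5.56% and 1.96%, each lowest at E15.5. In Ngn3-GFPlow cells Mcm2 had 69.5%, 78.8% and 75.7% and Rrm2 33.9%, 40.4% and 43.2%. Without Csf1r cells these Ngn3-GFPlow shares were 87.9%, 95.8% and 84% for Slbp, 68.2%, 87.5% and 76% for Mcm2, and 28.8%, 44.4% and 36% for Rrm2, so Mcm2 was the more frequent in the Ngn3-GFPlow sort at E14.5 and E15.5 but not at E13.5. Mcm2 at E13.5 stood at 172, 191 and 149 CPM in Ngn3-GFPhigh and at 231, 159 and 192 CPM in Ngn3-GFPlow sets, which overlap (log2 fold change -0.29 ± 0.26, adjusted p = 0.568, edgeR), and it was lower in Ngn3-GFPhigh cells at E14.5 (-1.68 ± 0.25, adjusted p = 0.00075) and E15.5 (-2.26 ± 0.33, adjusted p = 0.00161, edgeR). Slbp, Mcm2, Rrm1 and Mcm7 were picked out after their values were seen.

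**Figure D3:**
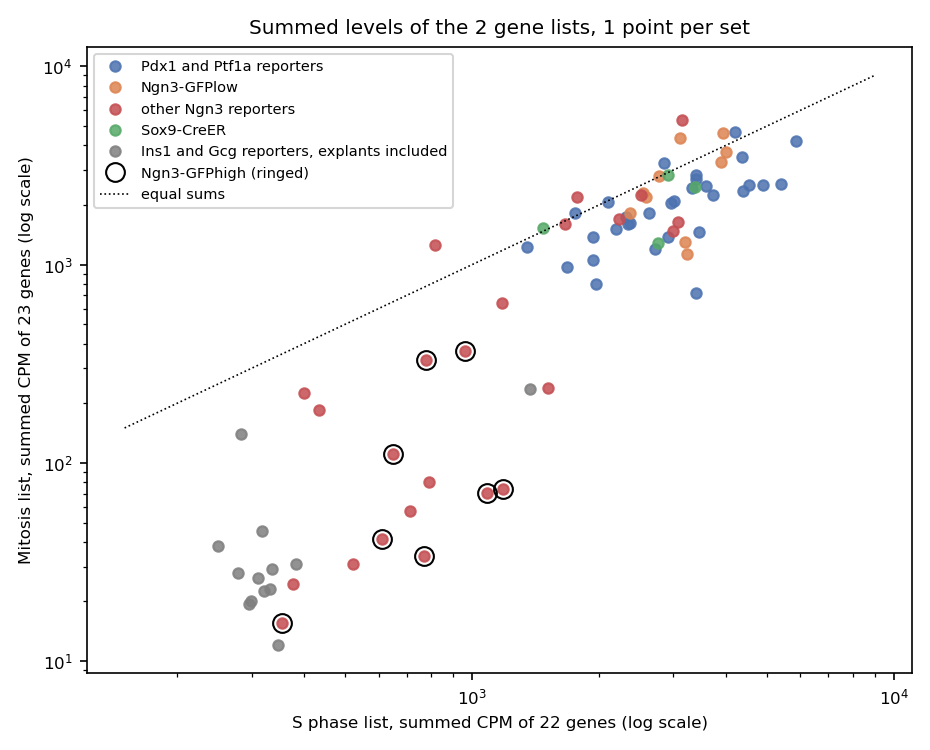
Summed CPM of the mitosis list against summed CPM of the S phase list, both axes logarithmic, 1 point per set, with Ngn3-GFPhigh sets ringed and a dotted line where the sums are equal. Ngn3-GFPhigh sets lie below the line, at mean sums of 501 to 1077 CPM for S phase and 63.4 to 170 CPM for mitosis, and 1 set of each day lies above the others on the mitosis axis.

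The share of cycling cells per set was 32.5% ± 8.26 (SD, n = 3) in Ngn3-GFPhigh and 63.8% ± 12.9 (n = 3) in Ngn3-GFPlow cells at E13.5, with an exact permutation p of 0.1, the smallest that 3 against 3 sets allow. Without Csf1r cells the Ngn3-GFPlow sets stood at 79.2%, 35.5% and 27.3% and overlapped the Ngn3-GFPhigh sets of 23.1%, 36% and 38.5% (exact p = 0.6). At E14.5 the shares were 14.3% ± 6.10 (n = 3) and 82.0% ± 8.42 (n = 5), or 79.7% ± 6.61 without Csf1r cells. The exact permutation p of 0.0357 was the smallest possible and became 0.107 after Benjamini-Hochberg adjustment over the 12 share tests made. At E15.5 they were 11.2% ± 11.1 and 82.6% ± 15.8 (n = 2 each, exact p = 0.333, the smallest possible), and the Ngn3-GFPlow sets stood at 66.7% and 90% without Csf1r cells. All tests of shares were two-sided. Among cells with Neurog3 at 100 CPM or more and no hormone gene at 1000 CPM, 21 of 54 (38.9%) were cycling in the Ngn3-GFPhigh sort at E13.5 and 14 of 38 (36.8%) at E14.5, while the Ngn3-GFPlow sort had 20 of 26 (76.9%) at E14.5. These counts pool the cells of several sets and carry no test.

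Genes of the same pathways outside the 45 moved as well between these sorts. Of 31 other replication genes, 11 fell at E13.5, 25 at E14.5 and 17 at E15.5 in Ngn3-GFPhigh cells, and of 37 other genes of the mitosis machinery 16, 30 and 24 fell, with 0 higher, where 4.61%, 9.01% and 5.58% of all genes tested fell. Without Csf1r cells, a count added with the data in view, 1, 19 and 4 replication and 3, 16 and 11 mitosis machinery genes fell, against 0.507%, 4.51% and 2.25% of all genes. Of 10 regulators, 2, 3 and 2 fell, among them Mybl2 (log2 fold change -7.62, -3.52 and -6.14), a partner of the complex known to bind CHR letters, and Rbl1 (-2.15, -2.80 and -2.91). Without Csf1r cells 0, 1 and 1 regulators fell. Mybl2 then passed on none of the days (adjusted p = 0.0844, 0.157 and 0.391, edgeR). Rbl1 passed at E14.5 (adjusted p = 0.00408) and E15.5 (0.0365) but not E13.5 (0.277, edgeR). In the list of 13 cell cycle exit genes and D cyclins the directions were mixed. Cyclin D1 Ccnd1 fell on each day, from 105 to 6.01 CPM at E13.5 (-4.20 ± 0.70, adjusted p = 0.00551), from 181.5 to 14.3 at E14.5 and from 156 to 13.4 at E15.5. The antiproliferative gene Btg2 rose in the Ngn3-GFPhigh sort at E13.5 (747 against 151 CPM, adjusted p = 0.0405) and E14.5 (654 against 190 CPM, adjusted p = 0.0397, edgeR). Without Csf1r cells the E13.5 values of both missed the threshold, Ccnd1 at -3.22 (adjusted p = 0.0654) and Btg2 at 2.15 (adjusted p = 0.0891, edgeR). Ccnd1 at E14.5 and E15.5 (adjusted p = 0.00872 and 0.0404) and Btg2 at E14.5 (0.0367, edgeR) passed. Of the 13 genes 0, 2 and 0 then rose and 1, 2 and 1 fell on the 3 days. Among them were cyclin D2 Ccnd2, lower at E13.5 (-2.60, adjusted p = 0.0278), and the cyclin-dependent kinase inhibitor Cdkn1b, higher at E14.5 (1.70, adjusted p = 0.00694, edgeR).

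Early Ngn3-GFP+ cells (E10.5, E12.5) were set against late ones (E16.5, E17.5). Of the 45 members 29 were higher in the early sets (20 S phase, 9 mitosis) and 0 lower by edgeR's test, against 11.4% of all genes called higher. Pcna stood at 65.8 to 110 CPM at E10.5, 64.4 to 137 at E12.5, 18.5 to 72 at E16.5 and 20.1 to 29.6 at E17.5, so that 1 late set reached into the early range (log2 fold change 1.35 ± 0.27, adjusted p = 0.00277). Slbp did not overlap, at 158 to 246 CPM (median 216) in 6 early and 64.3 to 116 CPM (median 102) in 8 late sets (1.00 ± 0.19, adjusted p = 0.00207, edgeR). Tk1 (2.51 ± 0.49), Cdc6 (3.67 ± 0.86), Mcm5 (2.16 ± 0.50), Rrm2 (2.70 ± 0.78), Ccne1 (1.82 ± 0.43), the survivin gene Birc5 (3.38 ± 0.85), Bub1 (3.77 ± 1.09), the kinetochore motor Cenpe (3.27 ± 0.98), Mki67 (2.99 ± 1.00) and Cdk1 (2.52 ± 0.77) were higher as well. Top2a (2.25 ± 0.77, adjusted p = 0.052) and Ccnb1 (2.88, adjusted p = 0.0542, edgeR) did not pass. Among late sets, E16.5 set 4 stood highest for Mki67 at 82.6 CPM and E16.5 set 1 lowest at 0.0496 CPM.

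Most of these calls, too, were lost without the cells with Csf1r. Leukocyte markers summed to 462 to 7679 CPM in the early and 24.6 to 692 CPM in the late sets, and to 12.1 to 22.4 CPM in the early sets without the Csf1r cells. All 13 Csf1r cells of E10.5 and 30 of 42 at E12.5 (71.4%) were cycling. Without them 3 of the 29 calls remained, a count made after the data were seen, namely Slbp (0.73 ± 0.20, adjusted p = 0.029), Mcm7 (1.10 ± 0.30, adjusted p = 0.0272) and Ccne1 (1.53 ± 0.41, adjusted p = 0.0247, edgeR). The S phase median went from 1.78 to 1.00 and the mitosis median from 2.66 to 1.56, against 0.03 over all genes with all cells, and 0 of 45 members lay below 0. The share of cycling cells was 45.6% ± 21.3 in the 6 early sets (23.5% to 85.7%, median 43.2%) and 13.4% ± 11.7 in the 8 late sets (3.45% to 40%, median 10.7%), with an exact permutation p of 0.00266 (adjusted 0.0160). Without Csf1r cells it was 32% ± 24.5 against 12.8% ± 11.8 (exact permutation p = 0.0786). Without Ngn3-GFP+ E10.5 set 1, in which 18 of 21 cells were cycling, 19 calls remained in number. Mki67 was lost in 10 of 14 such fits, Cdk1 in 5, Rrm2 and Cenpe in 2 and Bub1 in 1, each time among others without E10.5 set 1. Of the other pathway genes 21 of 31 replication and 20 of 37 mitosis machinery genes were higher early, where 11.4% of all genes were. Without Csf1r cells, again chosen after the data were seen, 3 and 4 of them passed, against 5.73% of all genes. Btg2 (-1.40 ± 0.21) and Gadd45a (-1.71), a gene of growth arrest, were lower early, and both passed without Csf1r cells too (-1.13, adjusted p = 0.00179, and -1.40, adjusted p = 0.0294, edgeR). Beta cell markers summed to 689 to 1762 CPM in the early and 18292 to 151417 CPM in the late sets, and alpha cell markers to 28222 to 69843 against 13772 to 34092 CPM, so the sorts of these ages held different hormone cells. Their part in the result was not tested.

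Sox9-CreER descendants, the ductal sort, were compared with Ngn3-GFP+ cells of the same days, E16.5 and E17.5. The Ngn3-GFP+ sets are those of the comparison above. Of the members 26 were higher in Sox9-CreER cells (18 S phase, 8 mitosis) and 0 lower by edgeR's test, against 11.4% of all genes. Pcna stood at 166 and 143 CPM at E16.5 and 102 and 110.5 CPM at E17.5, above all 8 Ngn3-GFP+ sets, whose highest was 72 CPM (log2 fold change 1.89 ± 0.29, adjusted p = 0.000286). Uhrf1 stood at 173, 159, 68.1 and 107 CPM against 2.92 to 86.6 CPM (2.87 ± 0.52, adjusted p = 0.00102, edgeR), with 1 Ngn3-GFP+ set, E16.5 set 4, inside the Sox9-CreER range. The mitotic cyclin Ccnb2 averaged 193 against 24.3 CPM (4.17 ± 1.15, adjusted p = 0.015). Tk1 (2.87), Cdc6 (3.70), Mcm5 (2.51), Rrm2 (2.58), Birc5 (3.18), Bub1 (3.34) and Cdk1 (2.42) were higher, whereas Mki67 (2.65 ± 1.06, adjusted p = 0.08), Top2a (2.00, adjusted p = 0.0907), Ccnb1 (2.71, adjusted p = 0.0741) and Ccne1 (0.86 ± 0.48, adjusted p = 0.202, edgeR) did not pass. The share of cycling cells was 78.6% ± 12.2 in 4 Sox9-CreER sets (62.5% to 92.0%) against 13.4% ± 11.7 in 8 Ngn3-GFP+ sets (3.45% to 40%), without overlap (exact permutation p = 0.00404, the smallest possible, adjusted 0.0162).

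Besides duct markers, at 3193 to 24070 CPM in sum, the Sox9-CreER sets carried acinar markers at 606 to 44955 CPM, so this sort was not of ductal RNA alone. Without Csf1r cells 22 of the 26 calls remained, and without Sox9-CreER E16.5 set 1 or set 2 the count was 14 or 17. Cdk1 was lost in 9, Rrm2 and Bub1 in 7, Birc5 in 2, and Cdc6 and Ccnb2 in 1 of the 12 fits that left out a set, and Cdk1, Rrm2 and Bub1 also missed the threshold without Csf1r cells. Sox9-CreER sets held 0 Csf1r cells, and the Ngn3-GFP+ sets compared with them held 0 at E16.5 and 1 at E17.5. The fit without Csf1r cells also took in the Ngn3-GFP+ sets of E10.5 and E12.5, which lost 13 and 42 cells. It called 10.1% of all genes higher in Sox9-CreER cells. The source of the lost calls was not tested. Between E17.5 and E16.5 Sox9-CreER cells, 0 of 45 members passed by edgeR (1 by DESeq2) against 1.95% of all genes. Unadjusted edgeR p was under 0.05 for 3 members and for 2869 of 19059 genes tested. Ccne1 had 48.5 and 37.4 CPM at E16.5 and 0.938 and 9.23 CPM at E17.5 (-3.30 ± 0.87, adjusted p = 0.0665, edgeR), and the cyclin-dependent kinase inhibitor Cdkn1b rose from 15.53 to 62.2 CPM (1.79 ± 0.36, adjusted p = 0.021). The replication inhibitor Gmnn, which keeps Cdt1 in check, was higher in Sox9-CreER than in Ngn3-GFP+ cells at 122 against 11.4 CPM (3.64 ± 0.44, adjusted p = 3.73e-05, edgeR).

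Of the hormone sorts of E15.5, Ins1-RFP+ cells were low in both lists, and the Gcg-GFP+ sets differed from each other. In Ins1-RFP+ cells the S phase sum was 285 ± 50.1 CPM and the mitosis sum 30.4 ± 11.0 CPM (n = 2), and 0 of 39 cells were cycling, which allows a share of up to 7.69%. In Gcg-GFP+ set 1 the sums were 1373 CPM for S phase and 236 CPM for mitosis, with 2 of 16 cells cycling, and in set 2 they were 383 and 31 CPM, with 0 of 20. The S phase sum of set 1 was above that of every Ngn3-GFPhigh set. Against Ngn3-GFPhigh cells of the same day, 0 of 45 members passed for Ins1-RFP+ cells by edgeR (6 by DESeq2), with 0.0171% of all genes called. For Gcg-GFP+ cells 0 passed by edgeR (9 by DESeq2), with 0.0284% called. Unadjusted edgeR p was under 0.05 for 6 members and 1630 of 17595 genes in the Ins1-RFP+ comparison. In the Gcg-GFP+ comparison it was under 0.05 for 13 members and 1762 of 17595 genes. Leaving out Ngn3-GFPhigh set 2 gave 1 call in each, and leaving out Gcg-GFP+ set 2 gave 1 in the latter. Cyclin B1 Ccnb1 stood at 3.58 and 0.711 CPM in Gcg-GFP+ and at 0 and 0.207 CPM in Ngn3-GFPhigh sets (4.03 ± 1.22, adjusted p = 0.337, edgeR). The pooled share of both hormone sorts was 3.13% ± 6.25 (n = 4) against 11.2% ± 11.1 (n = 2) in Ngn3-GFPhigh cells (exact permutation p = 0.267, where 0.133 is the smallest possible).

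Between the hormone sorts Mcm6 was the 1 member called, lower in Ins1-RFP+ cells, against 0.358% of all genes. It stood at 3.53 and 4.36 CPM in Ins1-RFP+ and at 120.3 and 27.7 CPM in Gcg-GFP+ sets, groups that did not overlap (log2 fold change -4.02 ± 0.61, adjusted p = 0.0281, edgeR). The single Gcg-GFP+ set of E17.5, which entered no test, had 38.3 CPM. The call was lost without either Ins1-RFP+ set, and leaving out Gcg-GFP+ set 2 gave 4 calls. Mki67 stood at 22.2 and 6.04 CPM in Gcg-GFP+ and at 0 and 0.0539 CPM in Ins1-RFP+ sets (-8.01 ± 2.06, adjusted p = 0.147, edgeR). Of the exit genes and D cyclins, Ccnd2 (-1.81, adjusted p = 0.0281) and Ccnd1 (-1.69, adjusted p = 0.0353, edgeR) fell in Ins1-RFP+ cells. Ccnd2 also passed without Csf1r cells, of which each sort held 1 (-1.70, adjusted p = 0.0327), but Ccnd1 did not (-1.70, adjusted p = 0.0574, edgeR).

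Pdx1-Cre cells from E10.5 to E15.5 held progenitors and endocrine cells together. Their mean share of cycling cells was 63.4%, 69.3%, 77.3%, 53.4%, 41.4% and 65% on the 6 days, and over 19 sets it had a Pearson r of -0.351 with day (permutation p = 0.136, adjusted 0.271) and a Spearman rho of -0.413 (permutation p = 0.0786). Without the 2 sets farthest from the median day r was -0.400 (permutation p = 0.111). Of the members 1 passed as lower per day by edgeR, Mcm2 at -0.27 ± 0.05 log2 units a day (adjusted p = 0.00143), against 1.46% of all genes, and it passed in all 19 fits that left out a set. Mcm2 stood at 292 and 345 CPM in the sets of E10.5 and at 146, 89.9 and 136 CPM in those of E15.5. Mki67 had a slope of 0.18 ± 0.12 (adjusted p = 0.475). Ccnd1 fell by 0.55 log2 units a day (SE 0.08, adjusted p = 0.000398, edgeR).

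Inside the Pdx1-Cre sets, cells with endocrine genes were set against the others of the same set. A cell was taken as endocrine when Neurog3, Chga or Chgb stood at 100 CPM or more, or Ins1, Ins2, Gcg, Ghrl or Sst at 1000 CPM or more, genes that are no members. In the 16 sets with at least 3 cells of each kind, 23% ± 15.3 of endocrine cells (257 cells, sets at 0% to 50%, median 16.7%) and 94.4% ± 7.14 of the others (326 cells, 77.3% to 100%, median 96.5%) were cycling. The share was lower in endocrine cells in 16 of 16 sets, without overlap between the kinds (exact permutation test by sign, p = 3.05e-05, the smallest it can give, adjusted 0.000366). Over all fresh sorts and by marker, with the cells of many sets pooled and no test, 205 of 226 cells with the acinar gene Cpa1 at 1000 CPM were cycling (90.7%). The duct gene Spp1 gave 349 of 399 (87.5%), Neurog3 without a hormone gene 155 of 322 (48.1%, of which 117 by the S phase list alone), Gcg 32 of 395 (8.10%) and Ins2 3 of 186 (1.61%).

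**Figure D4:**
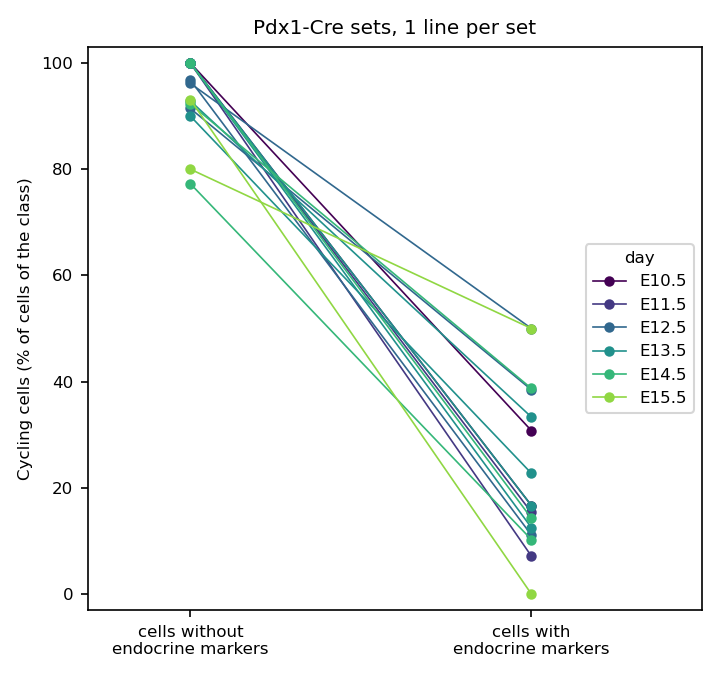
Share of cycling cells in percent (vertical axis) among cells with endocrine genes and among the other cells (horizontal axis), 1 line per Pdx1-Cre set, 16 in all. Each line falls from 77.3% or more in the other cells to 50% or less in cells with endocrine genes.

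Early sorts were compared at E11.5 and across the first days. Ptf1a-CreER cells, from the multipotent and acinar lineage, had the highest S phase sum but for Pdx1-GFPhigh cells, 4864 ± 875 CPM (n = 3), and a mitosis sum of 3804 ± 1136 CPM. Against Pdx1-Cre cells 0 of 45 members passed with 0% of all genes called by edgeR. Unadjusted edgeR p was under 0.05 for 2 members and for 1354 of 17241 genes tested. Rrm2 stood at 397, 450.1 and 643 CPM in Ptf1a-CreER and at 223 and 293 CPM in Pdx1-Cre sets (0.93 ± 0.47, adjusted p = 0.666). Its groups did not overlap, yet the test did not pass. Cycling cells made up 91.4% ± 8.35 (n = 3) against 69.3% ± 5.16 (n = 2, exact permutation p = 0.2, the smallest possible). Ngn3-Cre cells had 40.6% ± 13.3 (n = 2, exact permutation p = 0.333, the smallest possible). Against Pdx1-Cre cells 0 of 45 of their members passed by edgeR (1 by DESeq2) with 0% of all genes called. Here 8 members and 1157 of 17241 genes had an unadjusted edgeR p under 0.05. In Pdx1-GFP+ cells of E11.5 against E9.5, 0 of 45 passed by edgeR (1 by DESeq2) with 0.048% of all genes called. An unadjusted edgeR p under 0.05 was found for 6 members and for 1626 of 16670 genes. Mki67 stood at 72.1 and 83.7 CPM at E11.5 and at 39.5, 19.8 and 33.5 CPM at E9.5 (1.35 ± 0.43, adjusted p = 0.355). The share of cycling cells was 63.6% ± 12.4 (n = 2) at E11.5 and 60.9% ± 15.7 (n = 3) at E9.5, with exact permutation p = 1.0, and the sign of this difference turned with the threshold used.

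In explants treated with U0126, 0 of 60 Ins1-RFP+ cells were cycling, which allows up to 5.00%, and in untreated explants 0 of 58, which allows up to 5.17%. Only 21 of the 45 members had enough counts for the test, and 0 passed (0 at an unadjusted p under 0.05) with 0% of all genes called by edgeR. Slbp stood at 118, 93.1, 98.4 and 74.1 CPM with U0126 and at 113, 89.4, 76.1 and 80.8 CPM without, and Pcna at 35.6, 23.4, 23.1 and 18.5 against 22.3, 13.7, 14.1 and 37.6 CPM. Both genes overlapped between the groups. The log2 fold change of Pcna was 0.19 ± 0.40 (edgeR adjusted p = 1.0). The S phase sum was 312 ± 17.9 CPM with U0126 and 317 ± 30 CPM without (n = 4 each). Mki67, Top2a, Cdk1 and Ccnb1 fell below the filter on low counts and were not tested.

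The droplet libraries of whole E14.5 pancreas gave the lists in cells that no reporter had chosen. After filters, 3400 and 6596 barcodes were analysed, with median molecule counts of 9237 and 4908. A barcode was counted as cycling when at least 4 genes of a list had a molecule after each barcode was thinned to 3000 molecules, and 42.6% and 49.3% of barcodes met this. Each library is 1 sample, so the intervals below (exact, 95%) cover counting error only, and the classes shown were chosen after the data were seen. In library 1, 69.8% (64.9% to 74.4%) of 377 acinar-like and 62.9% (56.6% to 68.8%) of 253 trunk and duct-like barcodes were cycling, against 5.16% (2.25% to 9.92%) of 155 barcodes of a cluster led by Gcg, Ghrl, Pyy and Ins2. In library 2, the shares were 83.9% (81.4% to 86.1%) of 979 acinar-like, 64.5% of 403 trunk and duct-like, 3.58% (1.73% to 6.49%) of 279 alpha-like and 2.92% (0.801% to 7.31%) of 137 beta-like barcodes. Acinar-like and trunk and duct-like barcodes together stood 61.8 and 74.9 percentage points above hormone classes. Without thinning the acinar-like shares were 97.4% and 98.3%, and the hormone cluster of library 1 was at 14.8%, the alpha-like class at 8.57% and the beta-like class at 13.1%.

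**Figure D5:**
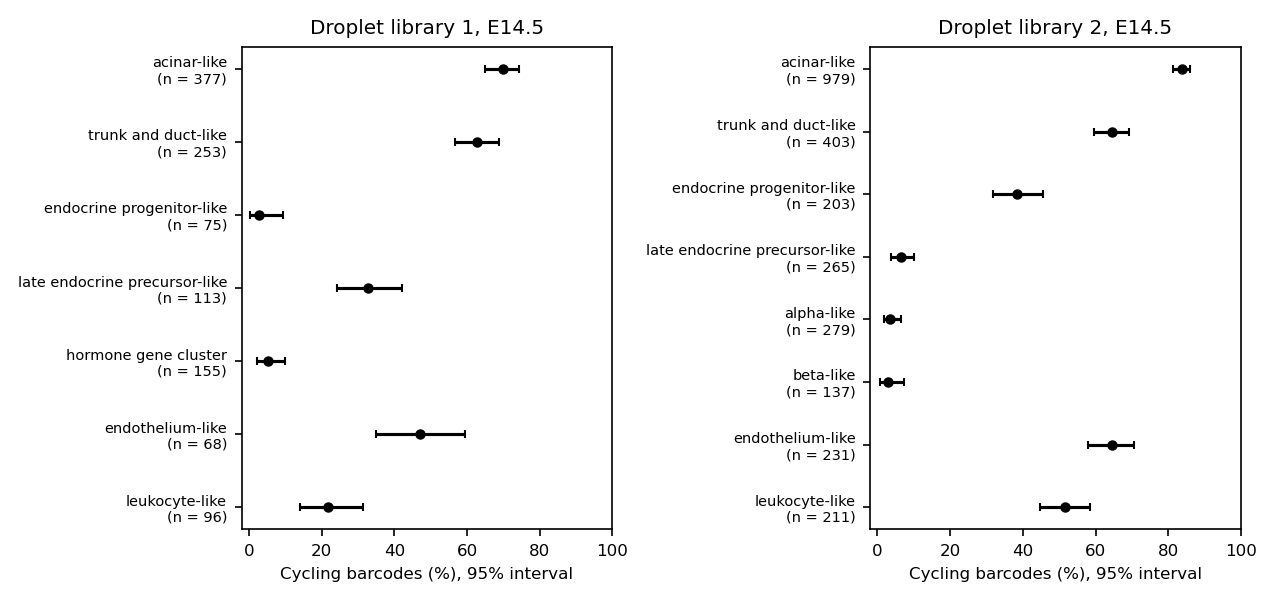
Share of cycling barcodes in percent with exact 95% intervals for each named class in the 2 droplet libraries, after thinning to 3000 molecules. Acinar-like (69.8% and 83.9%) and trunk and duct-like (62.9% and 64.5%) classes are high, hormone classes lie at 5.16% or lower, and the Neurog3 classes differ between libraries.

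Neurog3 clusters of the same name were led by different genes in the 2 libraries, so no order of the classes is read from their shares. The endocrine progenitor-like cluster was led by Neurog3, Pax4 and Gfra3 in library 1 and by Neurog3, Grin3a and Gpx2 in library 2, and the late endocrine precursor-like cluster by Chgb, Insm1 and Vwa5b2 and by Neurog3, Chgb and Pax4. In library 1 the endocrine progenitor-like class had 2.67% (0.325% to 9.30%) of 75 and the late endocrine precursor-like class 32.7% (24.2% to 42.2%) of 113 barcodes, while in library 2 they had 38.4% (31.7% to 45.5%) of 203 and 6.42% of 265. In each library the class with the higher median molecule count had the higher share, at 22313 against 8655 molecules in library 1 and 12341 against 4322 in library 2. The members and the other listed cell-cycle genes were left out of the clustering. Even so, a mesenchyme-like cluster in each library had the cell-cycle genes Nusap1, Spc25 and Cenpe among its top genes. Whether cell-cycle genes outside the lists helped to split the Neurog3 clusters was not tested. Doublets were called for 0.176% of barcodes in library 1 and 2.48% in library 2 and removed, and the part of doublets that were missed was not tested. Member by member and after thinning, Top2a had a molecule in 50.4% and 49% of acinar-like barcodes, 7.74% of the hormone cluster, 4.66% of alpha-like and 0 of 137 beta-like barcodes, although it stood at 9.01 CPM in the beta-like class without thinning. Rrm2 had one in 16.2% and 26.2% of acinar-like, 3.65% of beta-like and 0 of 155 barcodes of the hormone cluster, where it stood at 4.24 CPM without thinning. Mcm6 was seen in 25.7% and 21.8% of acinar-like barcodes and in 1.29% of the hormone cluster and 2.92% of beta-like barcodes. Slbp was seen in 23.6% and 33.8% of acinar-like, 14.8% of hormone cluster, 29.4% of alpha-like and 32.1% of beta-like barcodes. Free RNA in droplets adds molecules to every class, and no class here lacks these genes by definition, so shares of a few percent are not read as expression. Leukocyte-like barcodes were cycling in 21.9% of 96 and 51.7% of 211 cases and endothelium-like barcodes in 47.1% of 68 and 64.5% of 231.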

How the data were processed

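Deposited Smart-seq2 read counts of the authors, whole numbers per gene and cell without normalization, and deposited droplet counts of unique molecules were used. Per the submitters' processing notes, TopHat2 2.1.0, Bowtie2, HTSeq 0.6.0 and Cell Ranger 2.0.2 were run on mm10. Per the labels' protocols, Smart-seq2 cDNA carried no molecular identifiers and was amplified by PCR, so intervals and floors cover counting error only. Members, lists and comparisons were chosen with earlier results of these data known. The counts of a set's cells were added up (2838610 to 79253014 per set). Every gene that passed filterByExpr then entered edgeR's quasi-likelihood F test (4.0.16, TMM scaling, R 4.3.3), called at a Benjamini-Hochberg adjusted p below 0.05. Standard errors were taken as the log2 fold change divided by the square root of F. Groups of a shared age range or lineage entered 1 fit with 1 estimate of the spread. Two-sided exact permutation tests compared shares, and a permutation test was used for the trend (scipy 1.17.1). Members always given values were Mki67, Top2a, Cdk1, Ccnb1, Mcm5, Pcna, Rrm2 and Ccne1, the 3 called members of each list with the largest change, and any called against the majority. Droplet barcodes needed 1000 genes and no more than 10% mitochondrial counts, and scanpy 1.11.5 clustered each library (2000 variable genes, 30 components, 15 neighbours, resolution 1.0). Gene positions and exon overlaps come from GENCODE on GRCm38. Alternatives were DESeq2 1.42.0, RLE scaling, no filter, a replicate block, leaving out sets or Csf1r cells, and other thresholds. The tests were checked on simulated counts.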

Additional observations from a re-analysis of the deposited data

Results flagged for a closer look

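In groups of 4 to 10 sets, 86 combinations of a group and a measure were examined for 1 set far from the others, and 4 had one, where chance alone would give about 4.3. Mki67 stood at 16.7 CPM in Pdx1-Cre E12.5 set 2, which holds 7 cells, and at 69.6 to 75.1 CPM in the other 3 sets of that group. Mki67 stood at 0.0856 CPM in U0126 explant set 3 and at 0 in the other 3 sets. Cdk1 stood at 0.136 CPM in U0126 explant set 1 and at 0 in the other 3 sets. Both U0126 values lie near the floor, in sets of 11686123 (set 3) and 7369437 counts (set 1). Both genes fell below the filter on low counts in explants. Ccnb1 stood at 4.11 CPM in untreated explant set 2 and at 0 to 0.239 CPM in the other 3 sets.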

How the results depend on the processing

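Counts of called members moved with the cells of a set, with the tool and with single sets. With DESeq2, 35 members had a called drop from the weak to the strong Neurog3 reporter sort of E13.5. Among the sorts of E15.5, DESeq2 called 12 lower in Ins1-RFP+ than in Gcg-GFP+ cells. Against Ngn3-GFPhigh cells of that day it called 9 for Gcg-GFP+ and 6 for Ins1-RFP+ cells. It called 6 for the change of the step between Ngn3-GFPhigh and Ngn3-GFPlow cells from E13.5 to E15.5. For Ngn3-Cre against Pdx1-Cre at E11.5, Pdx1-GFP+ E11.5 against E9.5 and Sox9-CreER E17.5 against E16.5 it called 1 each. Without a filter on low counts 3 members passed between Ins1-RFP+ and Gcg-GFP+ cells. Shares of all genes called are not given for DESeq2, for no filter, for left-out sets or for the replicate block. Member counts from those fits therefore cannot be set against a background of all genes. Without Csf1r cells the calls were 2 at E13.5, 17 at E15.5 and 3 for early against late Ngn3-GFP+ cells, whose difference in cycling share fell from 32.2 to 19.2 percentage points (adjusted p = 0.236, exact permutation test). The cause of these shifts was not tested.

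Leaving out 1 set at a time (111 fits) gave 7 to 18 calls at E13.5, 19 to 39 at E14.5, 14 to 26 at E15.5, 0 to 4 for their change with age, 19 to 36 for early against late Ngn3-GFP+ cells, 14 to 33 for Sox9-CreER against Ngn3-GFP+ cells, 0 to 4 for Ins1-RFP+ against Gcg-GFP+ cells, 0 to 1 each for Ins1-RFP+ and Gcg-GFP+ against Ngn3-GFPhigh, for Ngn3-Cre against Pdx1-Cre and for Sox9-CreER E17.5 against E16.5, and 1 to 1 per day in Pdx1-Cre cells. The count stayed at 0 for Ptf1a-CreER, Pdx1-GFP+ and the explants. Differences in cycling share ranged from -35.7 to -23.9 percentage points at E13.5, -71.3 to -64.2 at E14.5, -82.6 to -60.2 at E15.5, 24.2 to 36.7 for early against late, 60.8 to 70.7 for Sox9-CreER, -15.9 to -0.208 for the hormone sorts, -38.02 to -19.3 for Ngn3-Cre, 17.9 to 26.2 for Ptf1a-CreER, and the correlation with day from -0.457 to -0.307.

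The sign of the Pdx1-GFP+ share difference between E11.5 and E9.5 turned with a threshold of 20 CPM (-17.5 percentage points), with 5 genes of a list (-14.6), with cells thinned to 150000 counts (-1.59), with the replicate block (-1.85) and on leaving out single sets (-6.02 to 11.8). In droplets, acinar-like and trunk and duct-like barcodes together stood 73.2 and 83.5 percentage points above hormone classes with 3 genes of a list. The differences were 35.5 and 47.8 with 6, and 81.0 and 84.1 without thinning.

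Whether set numbers shared by groups mark a pairing was not settled. Correlations of same-numbered sets were small and all above 0, at 0.0796 to 0.136 at E13.5, 0.044 to 0.0818 at E14.5 and 0.0388 to 0.138 in explants. Sets of different numbers were not compared, so these values cannot tell a weak pairing from none. With the replicate block 21, 37 and 37 members passed on the 3 days, 29 for early against late, 27 for Sox9-CreER and 0 between Ins1-RFP+ and Gcg-GFP+ cells.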
